A study of Homo sapiens with 18 samples.

Results

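The rexinoids coded A34 and A80 were compared directly, at the same dose and time, in U87, an established human glioblastoma cell line. The comparison used the 3 libraries titled A34 and the 3 titled A80, 6 of the 18 libraries of the series, chosen by treatment title. A34 cells received 100 nM A34 once and A80 cells 100 nM A80 once, and RNA was taken after 24 h. Ethanol cells, the vehicle controls, were handled alike without a rexinoid, and 3 other groups (bexarotene, A41 and A98) entered the fit as a source of spread. All groups were grown in DMEM with fetal bovine serum and antibiotics, and the labels give the cells as glial with no genetic modification. The structures behind the codes were not used here, so no difference in structure can be set beside a difference in response. P-values were adjusted over genes for this 1 pair of compounds. No adjustment covers the fits against ethanol, the ranking among the rexinoids or earlier looks at these data. A single line stands for the tumour here, and serum is itself a source of lipids and retinoids.

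Rexinoids bind and switch on the retinoid X receptors (RXR), a class of nuclear receptors that work on DNA mostly in pairs with another nuclear receptor. With the liver X receptors (LXR) they control cholesterol export and fatty acid desaturation, with the retinoic acid receptors (RAR) the clearance and sensing of retinoic acid, and with the peroxisome proliferator-activated receptors (PPAR) the use of fatty acids. Some of these pairs can be switched on from the RXR side alone, while others answer mainly to the ligand of the partner, so a rexinoid can reach several sets of genes.

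Total RNA was depleted of ribosomal RNA, primed at random and sequenced as pairs of reads. The A34 libraries held 1.40, 1.62 and 2.28 gigabases of aligned sequence and the A80 libraries 1.31, 3.26 and 3.89. Between 15872 and 16625 genes reached 1 TPM (a gene's share of a library's transcripts, corrected for length) in the A34 libraries and between 15972 and 16395 in the A80 libraries. Ribosomal RNA took 0.571% to 1.09% of TPM with A34 and 0.529% to 0.846% with A80, against 35.5% in ethanol replicate 2. Levels are given as scaled TPM, TPM divided by a median-of-ratios factor that lay between 1.04 and 1.14 in the 6 libraries. Mesenchymal genes of this line were abundant: the filament gene VIM averaged 4018 scaled TPM over the 18 libraries and the surface receptor CD44 1005. Of genes that define mature astrocytes, GFAP averaged 0.780, AQP4 0.0470 and S100B 0.00963 scaled TPM, while the other astrocyte markers listed were at 197 (CLU), 68.5 (GJA1), 20.7 (SLC1A3) and 0.470 (ALDH1L1), so markers of the labelled glial type were present in part. Of 6 microglia and leukocyte markers, the defining gene PTPRC averaged 0.0567 scaled TPM, and the summed level of the 6 was 196 to 210 with A34 and 149 to 192 with A80, nearly all of it from the lysosomal gene CD68, and the part of this in the results was not tested.

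No gene passed the test between A34 and A80. In limma's two-sided test, adjusted by Benjamini-Hochberg over 18269 genes with a threshold of 0.05, 0 genes (0%) were called and the lowest adjusted p was 0.367. At an unadjusted p under 0.05 there were 645 genes (3.53%), of which 280 (1.53%) were higher and 365 (2%) lower with A34. With no true difference a share of 0.05 would be expected at that p, so there was no excess of small p-values. All 3 A34 libraries lay above all 3 A80 libraries in 657 genes (3.6%) and below them in 702 (3.84%). Groups of 3 can also lie apart in such shares with no true difference, so groups that do not overlap are a description only. A p that misses the threshold does not show that the compounds act alike, so the intervals matter here. For 15635 genes (85.6%) the 95% interval of the difference lay within 2-fold either way, and for 11147 genes (61%) within 1.5-fold. The interval reached a median of 0.56 to either side on the log2 scale for genes averaging under 5 scaled TPM and of 0.22 for genes averaging 20 to 100. Over all genes the median log2 difference was -0.0018. The labels do not state whether replicates were separate cultures, and the p-values therefore rest on a spread between libraries that could be technical only. In RNA from whole cultures, a change in how many cells express a gene and a change in RNA per cell cannot be told apart.

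**Figure D1:**
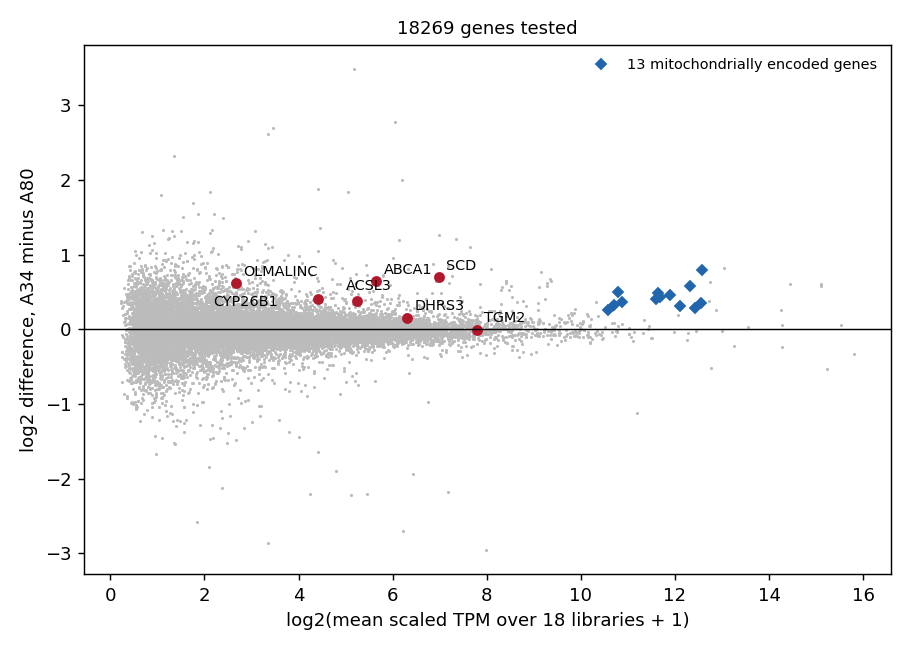
Log2 difference between A34 and A80 (y axis, A34 minus A80) against the log2 of the mean scaled TPM over 18 libraries plus 1 (x axis), 1 grey point per tested gene. Red points mark lipid and retinoid genes and blue diamonds the 13 mitochondrially encoded genes, and none of the 18269 genes passed the adjusted threshold.

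The genes nearest to the threshold among those of lipid handling were all higher with A34. ABCA1, the membrane pump that exports cholesterol from cells and a textbook LXR target, lies on chromosome 9 (chr9:104781006-104928155, GRCh38, minus strand). It had 75.5, 68.5 and 53.3 scaled TPM in the A34 libraries, against 46.6, 40.9 and 36.9 in the A80 libraries and 21.9, 24.0 and 22.4 in the ethanol libraries. Every A34 library was above every A80 library, and every A80 library was above the ethanol libraries. The difference between A34 and A80 was 0.65 on the log2 scale (SE 0.11, 95% interval 0.40 to 0.89), 1.56-fold, with an unadjusted p of 4.02e-05 and a limma adjusted p of 0.367. Without A34 replicate 3, the lowest of its group, the difference was 0.79 and the limma adjusted p was 0.0292, the only setting in which a gene of a list passed. Without A34 replicate 1, the highest of its group for ABCA1, no gene passed, and none passed when any single A80 library was left out.

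SCD, the enzyme that makes monounsaturated fatty acids, had 217, 164 and 142 scaled TPM with A34, against 127, 105 and 88.2 with A80 and 49.5, 47.0 and 39.9 with ethanol. The groups did not overlap, although replicate 1 was the highest library of both rexinoid groups and the spread within A34 was wide. The log2 difference was 0.70 (95% interval 0.38 to 1.02; unadjusted p 0.000298, limma adjusted p 1). OLMALINC, a long noncoding RNA whose annotated gene lies 8272 bases from that of SCD on chromosome 10, had 9.49, 8.01 and 6.18 scaled TPM with A34, against 5.31, 5.09 and 3.92 with A80 and 1.39, 2.45 and 2.20 with ethanol. As for SCD, A34 was highest, A80 next and ethanol lowest of these 3 groups, with a log2 difference of 0.61 (95% interval 0.25 to 0.98, unadjusted p 0.00269, limma adjusted p 1).

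ACSL3, which activates long chain fatty acids at the endoplasmic reticulum and at lipid droplets (chr2:222860942-222944639, plus strand), had the tightest groups of the 4. It was at 43.8, 42.0 and 42.1 scaled TPM with A34, against 33.4, 32.1 and 31.8 with A80 and 26.9, 28.7 and 28.4 with ethanol. The log2 difference was 0.38 (SE 0.07, 95% interval 0.24 to 0.53), or 1.31-fold, with the lowest unadjusted p of all genes tested, 3.97e-05, and a limma adjusted p of 0.367.

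Set beside the other rexinoids, A34 had the highest mean and A80 the lowest of the 5 groups for each of these 4 genes, which were singled out by the difference between A34 and A80, so this order follows in part from the choice. For OLMALINC the step between A80 (4.77 ± 0.746) and A98 (4.94 ± 0.857) was below the SD of either group. ABCA1 averaged 65.8 ± 11.4 scaled TPM with A34 and 41.4 ± 4.88 with A80, against 59.1 with A41, 56.9 with A98 and 49.7 with bexarotene (SD, n = 3 each). SCD averaged 175 ± 38.7 with A34 and 107 ± 19.6 with A80, against 170 with A41, 138 with A98 and 120 with bexarotene. The step from A34 to A41 was smaller than the SD of the A34 libraries for both genes. The bexarotene and A41 means each include 1 library rich in ribosomal RNA. Each rexinoid was also fitted against ethanol, where both comparisons share the 3 ethanol libraries and replicate 2 of these is rich in ribosomal RNA. There ABCA1 had log2 differences of 1.47 with A34 and 0.83 with A80, and SCD 1.90 with A34 and 1.20 with A80.

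**Figure D2:**
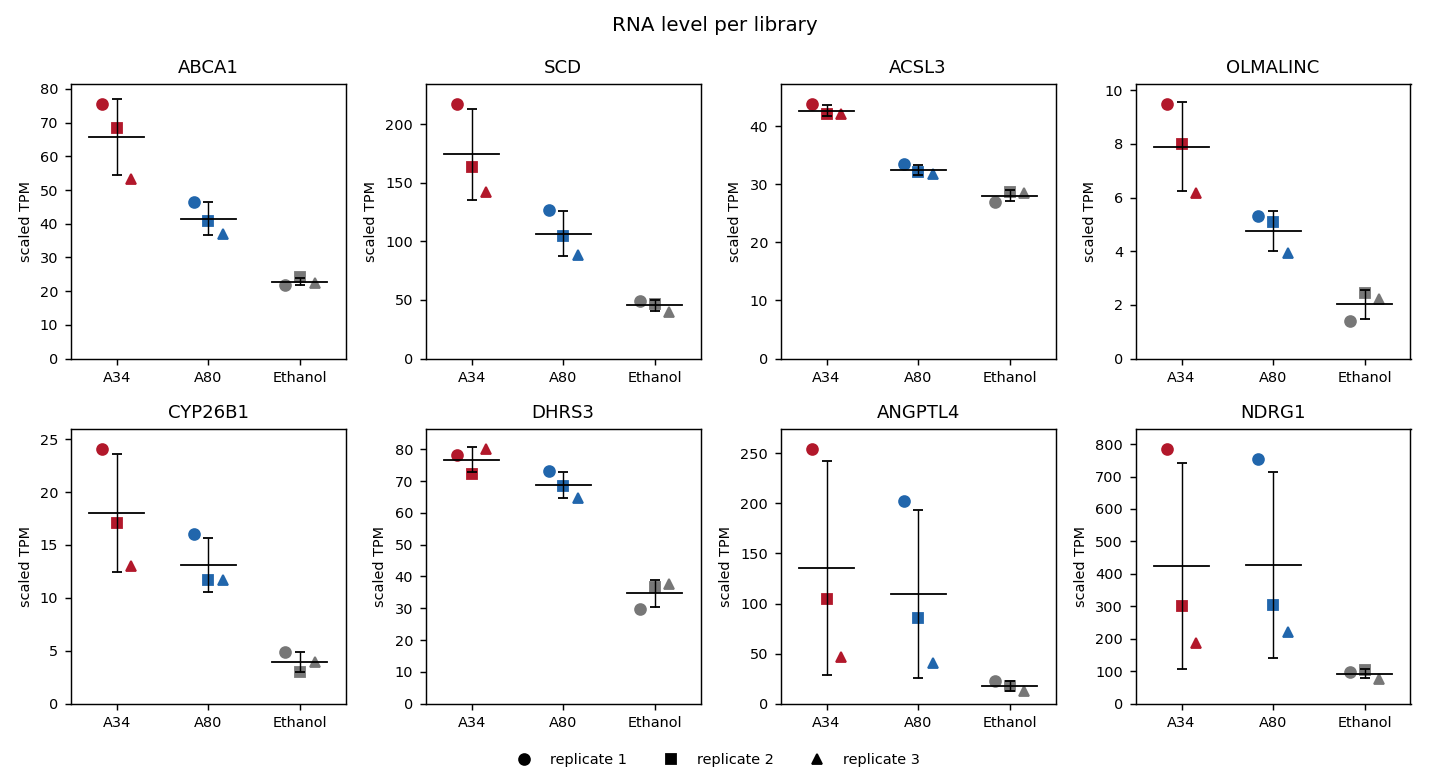
Scaled TPM of 8 genes in the A34, A80 and Ethanol libraries (y axes from 0), 1 symbol per library with its shape giving the replicate number, the bar the mean and the whisker 1 SD (n = 3). The A34 and A80 groups do not overlap for ABCA1, SCD, ACSL3 and OLMALINC, and overlap for CYP26B1, DHRS3, ANGPTL4 and NDRG1.

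The promoters of ABCA1 and ACSL3 are shown because these genes had the 2 lowest p-values and because LXR with RXR binds a direct repeat with a 4-base spacer. The 250 bases before the RefSeq start of each gene, on GRCh38.p14 and written 5' to 3' on the strand of the gene, each held 1 match to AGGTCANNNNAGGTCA, given in capitals. The search took both strands and allowed up to 1 mismatch in each AGGTCA. The ABCA1 window is chr9:104928156-104928405 (minus strand) and the ACSL3 window chr2:222860786-222861035 (plus strand). The RefSeq start of ACSL3 lies inside the gene span of the deposited tables, so its window overlaps the first bases of that span.
ABCA1: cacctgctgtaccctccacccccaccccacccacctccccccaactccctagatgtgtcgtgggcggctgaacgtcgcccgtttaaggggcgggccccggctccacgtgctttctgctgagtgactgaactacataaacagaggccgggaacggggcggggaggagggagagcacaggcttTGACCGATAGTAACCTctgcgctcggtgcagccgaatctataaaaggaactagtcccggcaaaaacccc
ACSL3: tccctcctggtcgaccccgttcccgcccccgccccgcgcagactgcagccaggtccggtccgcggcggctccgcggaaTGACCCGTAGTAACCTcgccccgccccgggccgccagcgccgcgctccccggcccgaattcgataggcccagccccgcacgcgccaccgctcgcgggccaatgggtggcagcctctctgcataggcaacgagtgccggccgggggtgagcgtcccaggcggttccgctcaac
The ABCA1 match spans bases -69 to -54 and the ACSL3 match bases -172 to -157 from the RefSeq start, and on the opposite strand they read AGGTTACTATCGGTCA in ABCA1 and AGGTTACTACGGGTCA in ACSL3. Of 35116 RefSeq promoter windows of this length, 484 (1.38%) held such a match. Of the 37 named genes with a window, these were the 2 with one, and SCD and OLMALINC had none in this window. Over the 166 tested genes with a match, the median log2 difference between A34 and A80 was -0.02, against -0.01 over all 10495 tested genes with a window, and 6 of the 166 (3.61%) had an unadjusted p under 0.05. Spacers of 1 and 5 bases were also searched in the same way, and 618 (1.76%) and 488 (1.39%) of the windows held a match. RARB and PDK4 were the named genes with a match at these spacers, both with 5 bases. A match is a description of letters and not of a bound site.

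Of 13 LXR targets listed, 7 were expressed enough to test, and 0 passed. All 7 had positive log2 differences, against 9030 of all 18269 genes tested, with a median of 0.20 against -0.0018 over all genes. An unadjusted p under 0.05 was found for 2 of them, ABCA1 and SCD, against 3.53% of all genes. Both were already singled out above by this difference. SCD, SREBF1 and FASN are also members of the fatty acid synthesis list below, so the lists are not separate. SREBF1, the transcription factor of fatty acid synthesis, had 22.9, 15.8 and 11.2 scaled TPM with A34, against 14.5, 11.5 and 11.3 with A80, and 6.42, 7.39 and 6.64 with ethanol. Its groups overlapped, and the log2 difference of 0.35 had a 95% interval of -0.09 to 0.78. LPCAT3, which builds polyunsaturated phospholipids, differed by 0.20 (-0.04 to 0.45), and FASN, the fatty acid synthase, by 0.04 (-0.25 to 0.33). The sterol pump ABCG1, at a mean of 0.368 scaled TPM with A34 and 0.420 with A80, and MYLIP, a ubiquitin ligase, at 0.422 with A34 and 0.338 with A80, were below the filter and were not tested. Averaged over the 7 genes, the level relative to ethanol was 0.82, 0.70 and 0.51 on the log2 scale in the A34 libraries, against 0.50, 0.31 and 0.33 in the A80 libraries.

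Of 15 genes of fatty acid synthesis, 0 passed, 10 had positive differences, and the median was 0.10. Over all 18269 genes tested, 9030 had positive differences and the median was -0.0018. SCD, ACSL3 and FADS1, a desaturase of polyunsaturated fatty acids with a difference of 0.15 (0.0031 to 0.30), had an unadjusted p under 0.05, against 3.53% of all genes. SCD and ACSL3 were already singled out above by this difference. ACLY, which makes cytosolic acetyl-CoA, averaged 231 scaled TPM with A34 and 233 with A80, a difference of -0.02 with an interval of -0.14 to 0.11. Of 24 tested genes of cholesterol synthesis and uptake, 17 had positive differences, the median was 0.05, and 0 had an unadjusted p under 0.05. INSIG1, which holds back the sterol-sensing transcription factors, averaged 62.4 scaled TPM with A34 and 59.2 with A80, with an interval of -0.13 to 0.28.

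Of 11 tested RAR targets, 0 passed and 0 had an unadjusted p under 0.05. Positive differences were found for 9 of them, against 9030 of all 18269 genes tested, and the median was 0.09. CYP26B1, a hydroxylase that clears retinoic acid, had 24.1, 17.1 and 13.0 scaled TPM with A34, against 16.1, 11.7 and 11.7 with A80 and 4.85, 2.99 and 3.98 with ethanol. A34 replicate 3 lay within the A80 range, and the log2 difference of 0.41 had an interval from -0.0035 to 0.82 (unadjusted p 0.0518). DHRS3, which turns retinal back into retinol, had 78.1, 72.2 and 80.1 scaled TPM with A34, against 73.1, 68.4 and 64.8 with A80 and 29.9, 36.7 and 37.7 with ethanol. Its difference between the rexinoids was 0.16 (-0.02 to 0.34), smaller than either group's distance from ethanol. The transglutaminase TGM2 averaged 209 ± 15.2 scaled TPM with A34 and 209 ± 11.5 with A80 (SD, n = 3 each), and its interval of -0.17 to 0.17 leaves room for a difference of at most 1.13-fold either way. The receptor gene RARB averaged 6.60 with A34 and 6.59 with A80, but its interval was wider, -0.41 to 0.44. STRA6, a membrane receptor for retinol uptake, was low, at 2.34, 2.50 and 1.32 with A34 and 1.75, 1.42 and 1.59 with A80.

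Of 9 tested genes of retinoid uptake and synthesis, 1 had an unadjusted p under 0.05, against 3.53% of all genes. RDH10, which makes retinal from retinol, had 2.73, 3.39 and 3.0 scaled TPM with A34, against 4.03, 3.98 and 3.95 with A80 (unadjusted p 0.0181), and its annotated span overlaps that of the abundant ribosomal gene RPL7. ALDH1A3, which makes retinoic acid from retinal, averaged 295 scaled TPM with A34 and 325 with A80, with an interval of -0.31 to 0.03.

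No RXR or LXR gene passed the test. RXRA averaged 5.47 ± 0.463 scaled TPM with A34 and 5.85 ± 1.48 with A80, and RXRB 8.46 ± 1.46 with A34 and 9.77 ± 0.769 with A80 (SD, n = 3 each), with intervals of -0.36 to 0.23 and of -0.45 to 0.05. RXRG was listed at 0 in the A34 and A80 means. The LXR gene NR1H2 averaged 39.8 scaled TPM with A34 and 44.2 with A80, and NR1H3 5.58 with A34 and 5.42 with A80. Of 21 receptor and cofactor genes tested, 0 passed and 2 had an unadjusted p under 0.05, against 3.53% of all genes. They were the corepressor NCOR1 and the coactivator NCOA1. NCOR1 had 47.9, 41.2 and 36.6 scaled TPM with A34, against 28.2, 34.2 and 34.1 with A80 and 37.4, 38.2 and 39.3 with ethanol, so the ethanol libraries lay above A80 and within the A34 range. Its difference between A34 and A80 was 0.37 (0.16 to 0.58, unadjusted p 0.00168, limma adjusted p 1), and its span overlaps the genes PIGL and TTC19. NCOA1 had 8.08, 9.76 and 8.93 scaled TPM with A34, against 6.10, 7.95 and 7.14 with A80 and 9.29, 9.32 and 8.13 with ethanol (0.30, 0.08 to 0.52, unadjusted p 0.0101).

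Several genes whose A34 and A80 libraries all lay to 1 side of the ethanol libraries had narrow intervals between the 2 compounds. ID1, an inhibitor of differentiation, had 286, 298 and 297 scaled TPM with A34, against 298, 278 and 297 with A80 and 227, 208 and 219 with ethanol. The groups overlapped, and the interval of the difference between A34 and A80 was -0.12 to 0.15. ECH1, an enzyme of fatty acid oxidation, had 59.9, 51.4 and 58.9 scaled TPM with A34, against 59.8, 57.8 and 52.5 with A80 and 39.4, 36.5 and 41.9 with ethanol (interval -0.17 to 0.17). HMGA2, a chromatin protein of embryonic and tumour cells, had 96.2, 98.1 and 93.9 with A34, against 106, 106 and 92.5 with A80 and 127, 127 and 140 with ethanol (-0.23 to 0.08). ADAMTS1, a secreted protease, likewise lay below ethanol in all 6 libraries, at a mean of 29.5 with A34 and 30.7 with A80, against 45.8 with ethanol. FAM20C, a kinase of the secretory pathway, averaged 116 scaled TPM with A34 and 102 with A80, against 44.5 with ethanol, and its interval was -0.09 to 0.46. Over the 28 tested genes of the receptor and response panel, 17 had positive differences, 24 had an interval within 2-fold either way and 17 within 1.5-fold. Over all 18269 genes tested, 9030 had positive differences, 85.6% had an interval within 2-fold and 61% within 1.5-fold. The interval shares of the panel were thus close to those over all genes. The interval excluded 0 for 4 of the 28, ABCA1, SCD, ACSL3 and OLMALINC, and these were also the 4 whose groups did not overlap. An interval that excludes 0 is the same cut as an unadjusted p under 0.05, which 3.53% of all genes reached. Groups lay apart in 3.6% of all genes with A34 above and in 3.84% with A34 below. The panel was chosen with earlier results of these data known, so these counts are a description only.

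**Figure D3:**
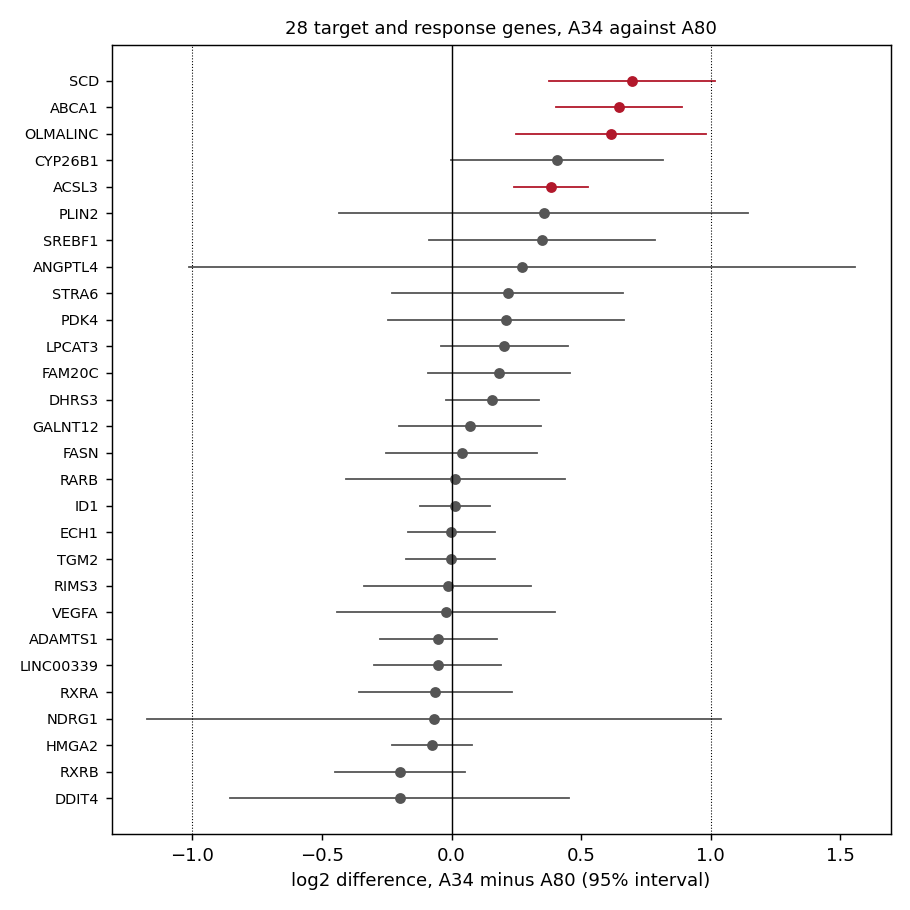
Log2 difference between A34 and A80 (x axis, A34 minus A80) with its 95% interval for 28 target and response genes, dotted lines at 2-fold either way. Red marks the 4 genes whose interval excludes 0, and TGM2, ECH1, ID1 and HMGA2 are among those with the narrowest intervals around 0.

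Genes of hypoxia, glycolysis and stress varied between replicates in both groups. Of 22 hypoxia and glycolysis genes, 0 passed, 9 had positive differences (9030 of all 18269 genes tested) and the median was -0.02. For all 22 the range within A34 was wider than the difference between the A34 and A80 means. A range of single libraries and a difference of means are unlike measures, and this count was not made over all genes. No conclusion about these genes is drawn from it. Replicate 1 was the highest A34 library for 22 of the 22 genes and the highest A80 library for 22 of the 22. NDRG1, a hypoxia and stress gene, had 784, 302 and 186 scaled TPM with A34, against 755, 304 and 222 with A80 and 96.7, 104 and 76.0 with ethanol. Its interval of -1.17 to 1.04 leaves a difference of 2-fold either way within reach. ANGPTL4, a secreted inhibitor of lipoprotein lipase and a PPAR and hypoxia target, had 254, 105 and 46.8 with A34, against 202, 85.1 and 40.8 with A80 and 22.7, 17.6 and 12.9 with ethanol (interval -1.01 to 1.56). VEGFA, the angiogenic factor, averaged 567 scaled TPM with A34 and 576 with A80 (-0.44 to 0.40). The list mean relative to ethanol was 1.41, 0.67 and 0.40 in the A34 libraries, against 1.40, 0.66 and 0.44 in the A80 libraries. Replicate 1 was likewise the highest library of both groups for ABCA1, SCD, OLMALINC and CYP26B1, and the part of this spread in those genes was not tested. Of 19 genes that answer to unfolded protein or amino acid stress, 0 passed and the median was -0.03, with DDIT4, an inhibitor of mTOR signalling, at 252, 190 and 124 with A34, against 297, 208 and 146 with A80. Of 11 PPAR targets tested, 0 passed and the median was 0.01, with PDK4, which limits glucose oxidation, at a mean of 1.72 with A34 and 1.39 with A80.

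**Figure D4:**
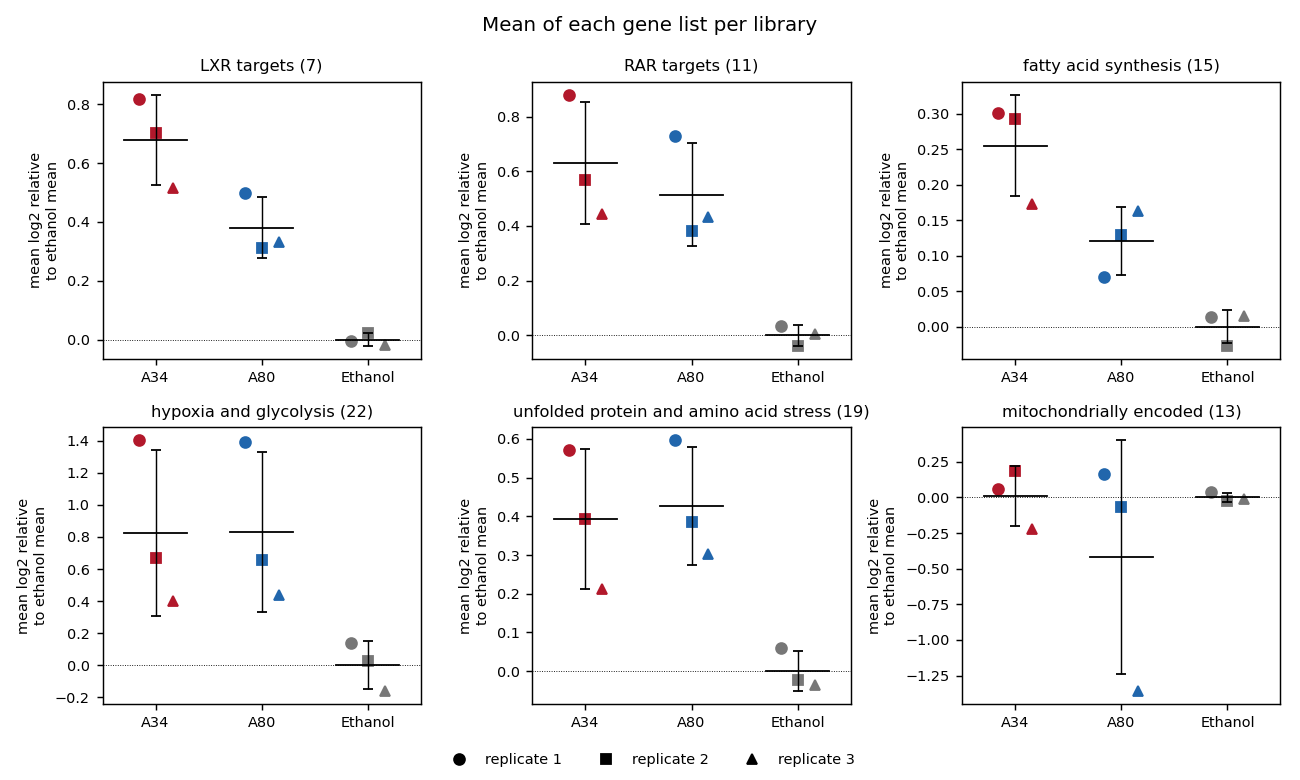
Mean log2 level of 6 gene lists in each A34, A80 and Ethanol library relative to the ethanol mean (y axes; the number of tested genes stands in each title), with symbols by replicate number, the bar the mean and the whisker 1 SD (n = 3). A80 replicate 3 stands apart for the mitochondrially encoded genes at -1.36, and replicate 1 is the highest of both rexinoid groups for hypoxia and glycolysis.

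The 13 protein genes of the mitochondrial genome all had positive differences, with the highest list median, 0.41, but 0 had an unadjusted p under 0.05 and the value rests on 1 library. A80 replicate 3 was the lowest of the 9 A34, A80 and ethanol libraries for 13 of the 13. MT-ATP8, a subunit of ATP synthase, had 6484, 7266 and 5405 scaled TPM with A34, against 7172, 5833 and 1173 with A80. MT-CO1, a subunit of cytochrome oxidase, had 5069, 5188 and 3724 with A34, against 5277, 4434 and 2168 with A80. Without A80 replicate 3 the list median was -0.05, so its direction turned.

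The other genes of smallest p were chosen by this same difference, among those with groups that did not overlap, and their values are a description. Those higher with A34 were PTGER2, EPB41L4B, LINC00632 and NQO2 beside the genes above. PTGER2, a receptor for prostaglandin E2, had 7.08, 7.85 and 6.53 scaled TPM with A34, against 3.84, 5.03 and 4.60 with A80 and 4.89, 5.88 and 4.43 with ethanol, so the A80 and ethanol libraries overlapped while A34 lay above both. LINC00632, a long noncoding RNA, was at 218, 185 and 133 with A34, against 126, 74.6 and 128 with A80. NQO2, a quinone reductase, averaged 19.5 scaled TPM with A34 and 16.1 with A80, against 18.3 with ethanol.

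Those lower with A34 were PXT1, RABGGTA, INTS4, ZNF7, NAGLU, MIPEP, DPCD and CUL4A. NAGLU, a lysosomal enzyme of heparan sulfate breakdown, had 5.04, 5.59 and 5.61 scaled TPM with A34, against 9.83, 7.61 and 9.50 with A80 and 8.13, 5.31 and 9.23 with ethanol. RABGGTA, a subunit of the enzyme that attaches lipid anchors to Rab proteins, had 4.06, 4.65 and 4.96 with A34, against 7.92, 6.83 and 6.89 with A80 and 7.34, 6.38 and 7.03 with ethanol, so A34 was the group apart. CUL4A, a scaffold of ubiquitin ligases, was at 40.2, 42.4 and 41.6 with A34, against 49.1, 50.3 and 54.6 with A80. INTS4, part of the Integrator complex, averaged 5.08 scaled TPM with A34 and 7.80 with A80, and MIPEP, a mitochondrial peptidase, 7.89 with A34 and 10.6 with A80. The zinc finger gene ZNF7 averaged 9.98 with A34 and 14.7 with A80, and DPCD 33.0 with A34 and 40.7 with A80. PXT1 was listed at 0 in all 3 A34 libraries, at 8.70, 5.42 and 2.44 in the A80 libraries, and at 0, 4.01 and 0 in the ethanol libraries, and it overlaps KCTD20, which averaged 14.3 with A34 and 13.6 with A80. No source used here says how strand was handled when the authors estimated TPM, so values of genes that overlap another are uncertain. Among the genes of smallest p these include RABGGTA, INTS4, ZNF7, MIPEP, DPCD, CUL4A and NQO2, and ABCA1 also overlaps a tested gene, AL359182.1. The same limit holds for HMGA2, SREBF1, TGM2, RARB, DHRS3, LPCAT3, FAM20C, RXRB and PDK4 above and for GINS2 and RPS3 below.

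Genes of growth, matrix and immune function showed list medians near 0. The median was -0.03 over 15 DNA replication genes, 0.04 over 17 mitosis genes, -0.02 over 11 p53 targets, -0.04 over 15 AP-1 and immediate early genes, -0.02 over 21 extracellular matrix genes and 0.06 over 13 ID and TGF-beta genes. The proliferation marker MKI67 averaged 76.5 scaled TPM with A34 and 66.2 with A80 (unadjusted p 0.0432), while GINS2, part of the replicative helicase, averaged 11.9 with A34 and 14.1 with A80 (unadjusted p 0.0406), so these 2 lay on opposite sides of 0. MMP1, a collagenase, averaged 5.94 scaled TPM with A34 and 7.97 with A80 (unadjusted p 0.0238). Over 15 inflammatory genes the median was 0.10, with IL1B at 601 with A34 and 568 with A80, and over 11 interferon genes it was -0.06. Over 11 NRF2 antioxidant genes the median was -0.01, and over 19 ribosomal protein genes -0.05, where RPS14 (256 with A34 and 318 with A80) and RPS3 (350 with A34 and 450 with A80) had an unadjusted p under 0.05. The glutamate transporter SLC1A3, an astrocyte marker, averaged 23.4 scaled TPM with A34 and 19.4 with A80, the only astrocyte marker of 4 tested with an unadjusted p under 0.05 (0.00699). No member of the 28 lists passed the threshold, and 3.53% of all genes had an unadjusted p under 0.05.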

How the data were processed

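RNA of 18 U87 libraries was analysed, 3 per treatment, grouped by the labels. The build was GRCh38 and the tools were STAR, MultiQC and StringTie, per the submitters' processing notes. Tool versions, annotation release and strand handling were not given in any source used here. Each deposited table gave TPM that the authors computed, a length-corrected share of a library's transcripts. FPKM and coverage (mean signal per base) stood beside it in the deposited tables and served only to read depth, 1.31 to 3.89 gigabases of aligned sequence per library.

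TPM was summed by gene ID and divided by median-of-ratios factors over the 18 libraries. Genes reaching 1 TPM in 3 or more libraries were tested as log2(scaled TPM + 1), 18269 in all, with limma 3.58.1 in R 4.3.3, 1 model for 6 groups, 12 residual degrees of freedom and a trend on level. Fold changes are on that scale and so are too small for low genes. Adjusted p-values are two-sided, Benjamini-Hochberg over all genes. TPM holds no counts, so no count model was used.

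Named genes are a panel of 30, the 8 of smallest p in each direction (unadjusted p under 0.05, no overlap of groups, higher mean at least 5 scaled TPM, span at least 300 bases) and up to 2 per gene list, 49 in all. Other list members given with values (such as ACLY, INSIG1, ALDH1A3, NR1H2, IL1B and the mitochondrial genes) were picked as examples after their values were seen. The members, panel and lists were chosen with earlier results of these data known. Coordinates are those of the deposited tables. Promoters came from RefSeq on GRCh38.p14. The fit was tested on simulated data for A34 against A80 over 18269 genes, with 50 genes changed at each size: 44% were called at a log2 change of 0.5, 86% at 1, 96% at 1.5 and 98% at 2. Under Benjamini-Hochberg these shares depend on how many genes are changed, so they can be too high for the real comparison. There ABCA1, at a log2 difference of 0.65, had a limma adjusted p of 0.367. Other scalings, pseudocounts, filters, sets of libraries and replicate blocks were also tried.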

Additional observations from a re-analysis of the deposited data

How the results depend on the processing

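The count of genes past the adjusted threshold was 0 in limma as reported (645 at an unadjusted p under 0.05) and in 14 of 17 alternatives, where 287 to 820 genes had an unadjusted p under 0.05. Without a filter on low values 2 of 53227 genes passed, AP005136.1 and RN7SKP147, each listed at 0 in 1 group and averaging under 1 scaled TPM in the other. Leaving out each library in turn gave 0 to 1 genes, and the counts among the gene lists and among the named genes were likewise 0 to 1. The gene was ABCA1 without A34 replicate 3 (1047 genes at an unadjusted p under 0.05) and RAB4B-EGLN2, a readthrough gene at 5.64, 0.330 and 18.7 scaled TPM with A34 and 0, 0 and 0.395 with A80, without A34 replicate 2. The 3 genes other than ABCA1 were named after their values were seen.

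The A34 and A80 libraries share replicate numbers, but the labels name no pairing, and the main fit had no replicate block. The deviations of same-numbered libraries correlated at 0.16 for replicate 1, 0.0056 for replicate 2 and 0.13 for replicate 3. The values for replicates 1 and 3 were above those of all differently numbered pairs, the highest of which was 0.07. Those of replicate 2 did not correlate best with each other. Hypoxia and glycolysis genes also followed the replicate number in both groups, so a state shared by number is possible and was not tested. With a replicate block from the titles 0 genes passed (739 at an unadjusted p under 0.05), with a block over the 6 libraries alone 0 (803), and with a block by file number 0 (735). Among alternatives with 0 genes the lowest limma adjusted p was 0.0531, for PXT1 with TPM as deposited. Over the 17 alternatives the log2 difference ran from 0.54 to 0.79 for ABCA1, 0.53 to 0.83 for SCD and 0.37 to 0.41 for ACSL3, and 35 of the 49 named genes kept their sign. ABCA1, SCD and ACSL3 each had an unadjusted limma p under 0.05 in 16 of the 17. Their highest unadjusted limma p was 0.104 for ABCA1, 0.0888 for SCD and 0.304 for ACSL3. Without a filter the median of the LXR list was 0.04. Intervals were widest for genes under 5 scaled TPM. With simulated data 44% of genes changed by 0.5 on the log2 scale were called, a share that depends on how many genes are changed.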
